A study of Mus musculus with 20 samples.

Results

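The genes described were 10 Toll-like receptor, co-receptor and adaptor genes, chosen by name: Tlr2, Tlr3, Tlr4, Tlr7, Tlr9, Tlr13, Cd14, Cd180, Ly86 and Myd88. They are 10 of the 54838 genes counted, and all 10 passed the filter on low counts that left 12680 genes for testing. RNA was sequenced from microglia, the brain's own macrophages, of the frontal cortex of 40-day-old mice (postnatal day 40). From each mouse 1000 cells were sorted on high CD11b and low CD45, and their cDNA, made by template switching, was amplified before library preparation. The 20 libraries carry 5 genotype labels. There were 2 libraries of hC4A/A and 5 of hC4A/- mice, humanized-transgenic lines with sequence of the human complement gene C4A, 4 of hC4B/- mice, which carry human C4B, 5 of C4-/- mice and 4 of wild type (WT) mice. C4 is a protein of the classical and lectin complement pathways, and human C4A is a susceptibility factor for schizophrenia. The labels give neither the sex nor the strain of the mice, nor the promoter of the human genes, and a minus or a repeated A in a label is written here as the labels have it.

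Toll-like receptors are membrane proteins that recognise conserved molecules of microbes and of damaged cells. Those at the cell surface bind mainly lipids and lipoproteins, and those in endosomes bind nucleic acids. Most signal through the adaptor Myd88 towards the transcription factor NF-kB and inflammatory cytokines, and in the brain microglia are a main cell type that expresses them. Tlr2 and Tlr4 are surface receptors, and Cd14 is a co-receptor that hands lipopolysaccharide to the Tlr4 complex. Cd180 is a surface protein built like a Toll-like receptor but without its signalling domain, and Ly86 is the secreted partner it binds. Tlr3, Tlr7, Tlr9 and Tlr13 are endosomal receptors for double-stranded RNA, single-stranded RNA, DNA rich in unmethylated CpG and bacterial ribosomal RNA, in that order.

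The gene counts per library summed to 855099 to 2735181, with a median of 1710215.5, of which 13.3% to 81.0% lay in 13 satellite-like predicted genes. In 4 libraries, here called broad (hC4A/A replicate 2, hC4B/- replicates 2 and 3 and C4-/- replicate 3) between 27178 and 30907 genes had at least 1 count, against 11348 to 23912 in the other 16. All 8 microglial markers were detected in every library, with summed levels of 3899 to 9246 CPM (counts divided by the TMM-scaled library size). The mouse C4b gene, which C4-/- mice lack by their label, had 21 and 271 counts in hC4A/A, 5 to 45 in hC4A/-, 4 to 428 in hC4B/- and 7 to 157 in C4-/- libraries, but 0, 0, 2 and 0 in WT libraries. The highest C4b counts, 271, 230, 428 and 157, were those of the 4 broad libraries. The remaining libraries not labelled WT had 4 to 104. The labels do not give which part of the gene is deleted. These counts go against the labels, so groups stand here for libraries labelled with a genotype, and every direction against WT or C4-/- carries that limit. The deposited names of the 4 WT libraries form a series of their own, so genotype and series cannot be told apart in any comparison with WT. Nothing in the labels says beyond a cell number per mouse how the mice were related, and p-values measure only the spread between these libraries.

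Ly86 was the most abundant of the 10 transcripts and Tlr9 the least, by the median over 20 libraries of CPM per kilobase of merged exon. The medians on that scale were 114 for Ly86, 18.5 for Cd180, 17.2 for Cd14, 6.61 for Tlr7, 4.24 for Tlr4, 2.96 for Tlr13, 1.85 for Myd88, 1.62 for Tlr2, 1.11 for Tlr3 and 1.02 for Tlr9. Ly86 lay above Cd180 in 20 of 20 libraries, by a ratio per kilobase of 1.53 to 17.9 with a median of 5.17. The other neighbours in this order changed places often: Cd180 lay above Cd14 in 12 of 20 libraries, Cd14 above Tlr7 in 15, Tlr7 above Tlr4 in 12, Tlr4 above Tlr13 in 13, Tlr13 above Myd88 in 15, Myd88 above Tlr2 in 12, Tlr2 above Tlr3 in 13 and Tlr3 above Tlr9 in 6. Of these steps between neighbours, only that from Ly86 to Cd180 held in every library, and genes further apart in the order were not counted here. Ly86 itself was not first in every library. In hC4A/A replicate 2 it had 15.7 CPM per kilobase, against 22.2 for Tlr7 and 16.4 for Tlr9.

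**Figure D1:**
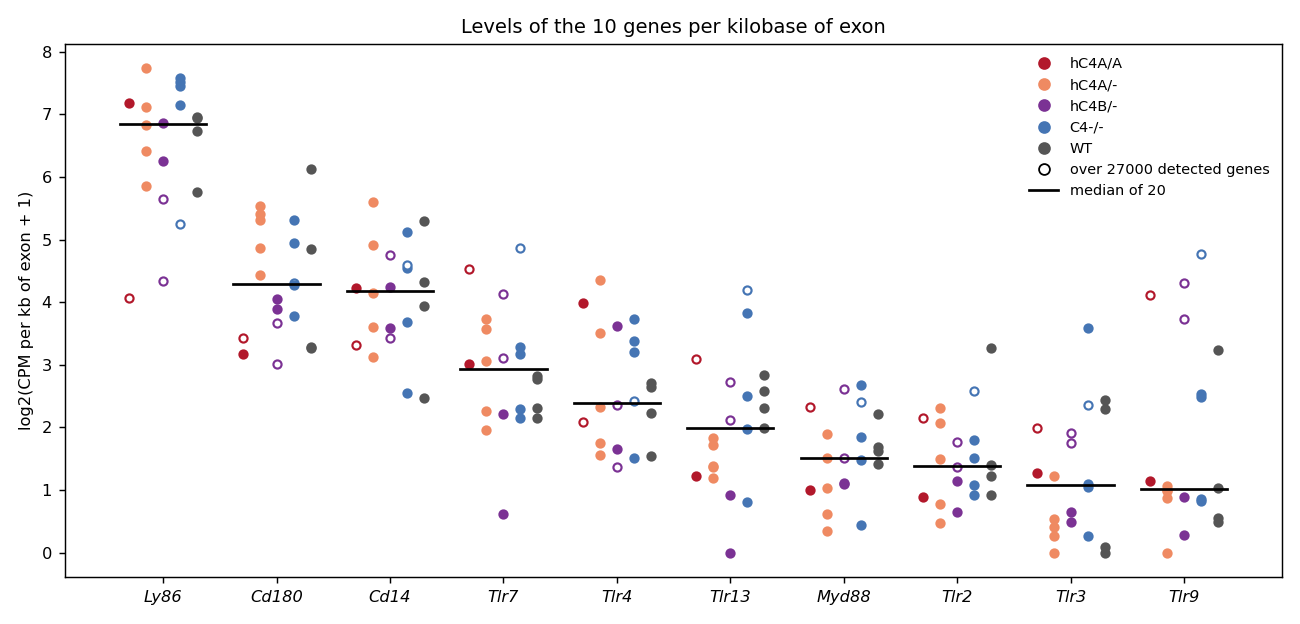
Level of each of the 10 genes in each of the 20 libraries, as log2(CPM per kilobase of exon + 1), with genes ordered by their median. Points are libraries coloured by genotype, open points are the 4 libraries with over 27000 detected genes, and bars are medians. Ly86 has the highest median and lies above Cd180 in 20 of 20 libraries, and the other neighbours change places.

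No member passed the test of any difference among the 5 genotypes. This was edgeR's quasi-likelihood F test in 1 fit over all 20 libraries, with Benjamini-Hochberg adjustment over 12680 genes and a threshold of 0.05 for the adjusted p, which 15 genes (0.118%) passed. The lowest adjusted p among the members was 0.436 for Tlr9, followed by 0.481 for Cd180, 0.613 for Tlr13 and 0.639 for Tlr3, and that of the other 6 lay between 0.851 for Tlr7 and 0.985 for Cd14. At an unadjusted p under 0.05 the test took 0 of the 10 members and 12% of all genes tested. In the 9 comparisons between pairs of genotypes and in that of the 16 other libraries with WT, 0 of the 10 members and 0 of all genes passed in edgeR (0.0% in each). In DESeq2 0 of the members passed, where 1 to 58 of the 12680 genes did, depending on the comparison. At an unadjusted p under 0.05 in edgeR, 0 of the 10 members were taken in hC4A/A (8.41% of all genes), hC4A/- (7.51%), hC4B/- (13.1%) or C4-/- (8.55%) against WT, in hC4A/A (2.17%) or hC4B/- (4.52%) against C4-/-, or in the 16 other libraries against WT (9.61%). The other 3 comparisons, all with hC4A/-, took 2 or 3 members each and are described with those genes. With a common biological coefficient of variation of 1.03, the intervals of the differences were wide, and an adjusted p above the threshold does not show that levels were equal.

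**Figure D2:**
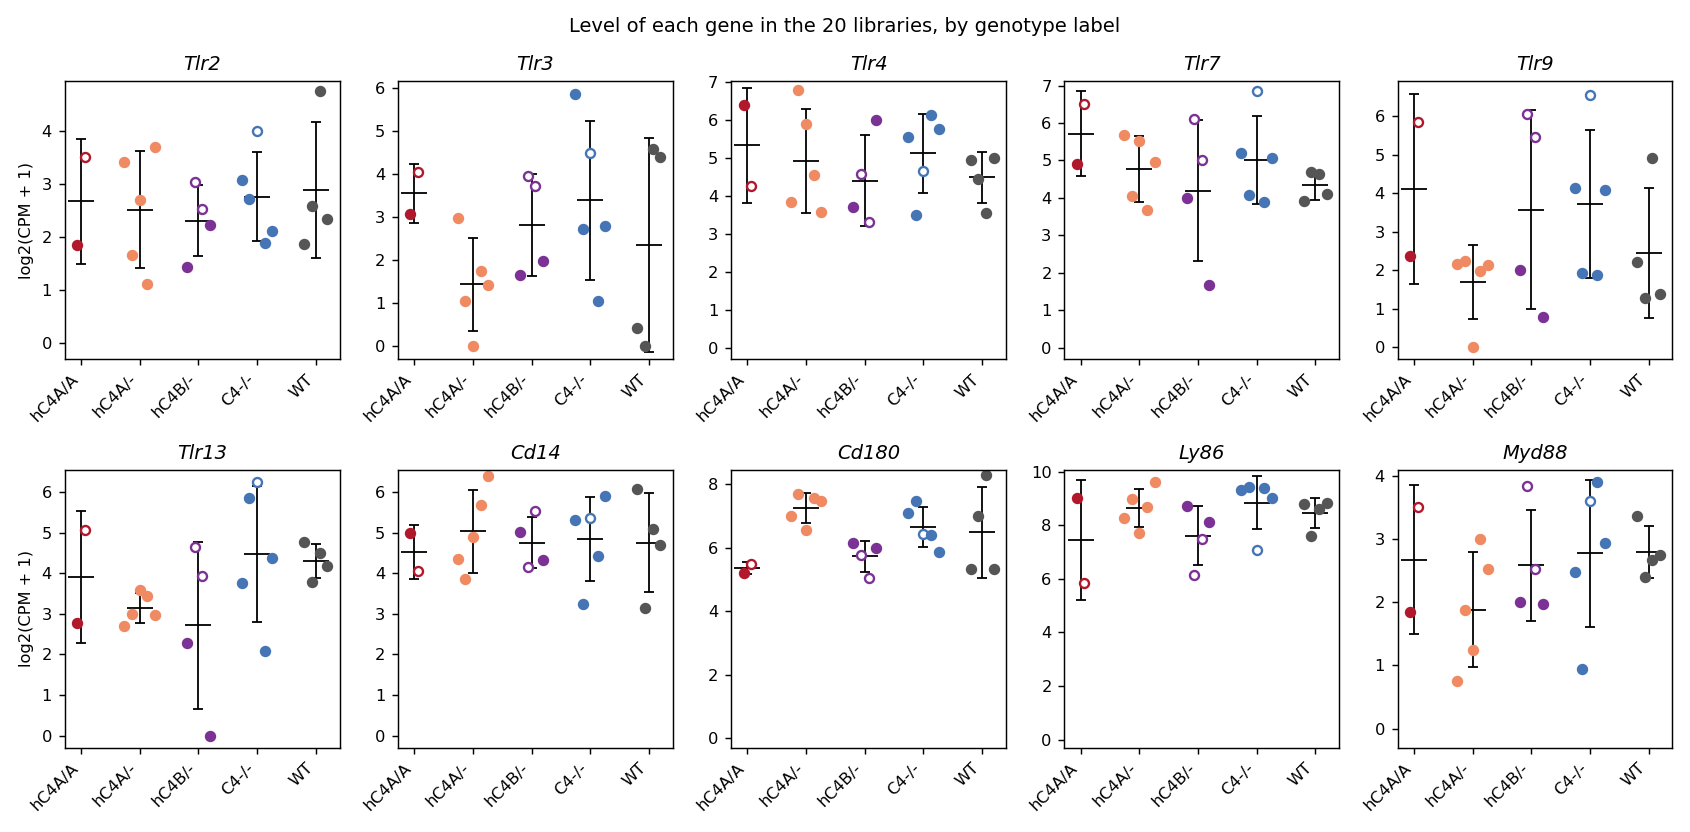
CPM of each member in each library, on the log2(CPM + 1) scale, in a panel per gene, with the genotypes from left to right as hC4A/A, hC4A/-, hC4B/-, C4-/- and WT. Points are libraries (n = 2, 5, 4, 5 and 4), open points are the 4 broad libraries, and bars are the mean with the SD on that scale. The open points are the highest of their groups for Tlr9 and the lowest for Ly86.

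Among the endosomal receptors, Tlr9 (chr9:106222598-106226883, GRCm38) varied most. It had 4.19 and 57.0 CPM in hC4A/A libraries, 3.45, 3.76, 0, 2.93 and 3.40 in hC4A/-, 2.99, 65.1, 42.9 and 0.731 in hC4B/-, 16.7, 2.80, 91.8, 2.69 and 15.97 in C4-/-, and 3.67, 1.42, 29.1 and 1.63 in WT. The 5 hC4A/- libraries were all low, and 1 or 2 libraries of every other group stood far above the rest of it. The count of 0 in hC4A/- replicate 3 allows a level of up to 2.06 CPM, counting error only, since reads of amplified cDNA without molecular identifiers are not independent molecules. Tlr9 averaged 2.71 ± 1.54 CPM in hC4A/- and 26.0 ± 37.4 CPM in C4-/- libraries (SD, n = 5 each), a log2 difference of -3.22 ± 1.18 (SE) with an edgeR adjusted p of 0.436 and an unadjusted p of 0.0106. Against the 27.9 ± 31.5 CPM of hC4B/- libraries (n = 4), the difference of hC4A/- was -3.31 ± 1.22 (edgeR adjusted p = 0.237, unadjusted p = 0.0108). In hC4A/A, with 30.6 ± 37.3 CPM (n = 2), Tlr9 differed from hC4A/- by 3.43 ± 1.36 (edgeR adjusted p = 0.370, unadjusted p = 0.0172).

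The high Tlr9 levels outside hC4A/- came mostly from the 4 broad libraries, none of which is labelled hC4A/-. Without these 4 the difference of hC4A/- from C4-/- was -1.48, that from hC4B/- turned to 0.43, and that of hC4A/A from hC4A/- was 0.56, with edgeR adjusted p of 0.704, 1.00 and 0.999. Leaving out C4-/- replicate 3 alone gave -1.44 against C4-/-, and leaving out hC4A/A replicate 2 gave 0.64 for hC4A/A against hC4A/-. Without that replicate, as without the 4 broad libraries, hC4A/A is 1 library, assumed to vary like the other groups. C4-/- replicates 1 and 5, which are not among the 4, still lay above every hC4A/- library, and replicates 2 and 4 lay below the highest. Replicates 1 and 5 of C4-/- had 23912 and 18884 detected genes, and replicates 2 and 4 had 13149 and 11995. WT replicate 3, at 29.1 CPM, had 18586 detected genes, and hC4A/- replicate 5, at 3.40 CPM, had 18753. The part of the number of detected genes in these Tlr9 levels was not tested.

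Tlr13, on the X chromosome (chrX:106143204-106160493), was low and even in hC4A/- libraries. It had 5.80 and 32.4 CPM in hC4A/A libraries, 5.52, 6.99, 10.98, 9.95 and 6.81 in hC4A/-, 3.84, 24.1, 14.3 and 0 in hC4B/-, 12.7, 56.9, 74.7, 3.22 and 20.0 in C4-/-, and 26.4, 12.8, 21.5 and 17.1 in WT. All 5 hC4A/- libraries lay below all 4 WT libraries, and of the 10 members Tlr13 alone did not overlap in that comparison, in which 0.797% of all genes lay wholly lower. The log2 difference of hC4A/- from WT was -1.27 with a 95% interval of -3.15 to 0.62 (edgeR adjusted p = 0.901), and that from C4-/- was -2.05 ± 0.90 (edgeR adjusted p = 0.445, unadjusted p = 0.0307). Without C4-/- replicate 3 the difference from C4-/- was -1.31, and without the 4 broad libraries -1.33. Low Tlr13 was not particular to hC4A/-. Without the 4 broad libraries, the difference of hC4A/- from hC4B/- moved from -0.36 to 2.01. In that fit hC4B/-, then 2 libraries, differed from WT by -3.18 and from C4-/- by -3.34. The 0 in hC4B/- replicate 4 allows up to 2.19 CPM.

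Tlr3 (chr8:45395665-45411080) was at or near 0 in several libraries. Its levels were 7.42 and 15.5 CPM in hC4A/A, 6.90, 1.07, 0, 2.34 and 1.70 in hC4A/-, 2.14, 14.5, 12.3 and 2.92 in hC4B/-, 57.5, 5.59, 21.6, 1.07 and 5.99 in C4-/-, and 0.334, 0, 23.0 and 20.3 in WT. Both hC4A/A libraries lay above all 5 hC4A/- libraries, while WT libraries fell into a pair near 0 and a pair above 20 CPM. The log2 difference of hC4A/- from C4-/- was -2.92 ± 1.2 (edgeR adjusted p = 0.440, unadjusted p = 0.0209), and -1.83 without C4-/- replicate 1, its highest library. An antisense predicted gene, Gm45542, shares 381 exon bases (7.32%) with Tlr3. In the unstranded counts reads of this overlap are ambiguous, and ambiguous reads stayed out of the gene counts. The exon length behind CPM per kilobase still includes these bases. The 0 in hC4A/- replicate 3 allows up to 2.06 CPM and that in WT replicate 2 up to 2.14 CPM.

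In the comparison of hC4A/- with C4-/-, these 3 endosomal receptors were the members with an unadjusted p under 0.05, 3 of 10, against 10.7% of all genes (8.17% lower). The median difference of the 10 members was -0.38 and that of all genes tested -0.32. By their medians, all 3 were also higher in the 4 broad libraries than in the other 16: Tlr9 with 61.1 against 3.20 CPM, Tlr13 with 28.3 against 10.5 CPM and Tlr3 with 15.01 against 2.63 CPM. C4-/- holds 1 of these libraries and hC4A/- none, and without these libraries the Tlr3 difference was -2.45 (edgeR adjusted p = 0.597).

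Tlr7 (chrX:167304929-167330558) was the most abundant endosomal receptor among the members by the median per kilobase, but not in every library. Per kilobase it lay above Tlr9 in 17 of 20 libraries and above Tlr3 and Tlr13 in 18 each. It had 29.0 and 90.7 CPM in hC4A/A libraries, 50.4, 15.6, 44.6, 11.7 and 29.9 in hC4A/-, 14.9, 67.5, 31.3 and 2.19 in hC4B/-, 35.7, 15.9, 115, 13.97 and 32.6 in C4-/-, and 14.02, 24.9, 23.8 and 16.3 in WT. Both hC4A/A libraries lay above the 4 WT libraries, the 1 non-overlap among the members in that comparison, where 7.41% of all genes lay wholly higher. The log2 difference was 1.59 (95% interval -0.42 to 3.60, edgeR adjusted p = 0.657). The 16 other libraries differed from WT by 0.97 (95% interval -0.49 to 2.43, edgeR adjusted p = 0.634). Tlr7 and Tlr13 are both X-linked, the sex of the mice is not labelled and Xist ranged over the libraries between 0 and 800 CPM; its part in these levels was not tested.

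Sequence upstream of the RefSeq start site is shown for the genes with an unadjusted p under 0.05 in any comparison, Tlr3, Tlr9, Tlr13 and Cd180. Over all 20 libraries their group means in hC4A/- were the lowest or, for Cd180, the highest of the 5 genotypes. Without the 4 broad libraries the hC4B/- mean lay below that of hC4A/- for Tlr13 (1.92 against 8.05 CPM) and Tlr9 (1.86 against 2.71 CPM). RefSeq promoter sequences (GRCm38.p6, 250 bases before to 50 after the start) matched 7 of the 10 members: Tlr2, Tlr3, Tlr9, Tlr13, Cd180, Ly86 and Myd88. Both strands were searched for GAGGAA, a core of sites of the myeloid factor PU.1, for TGANTCA of AP-1, for GGG, any 2 bases and TTTCC of NF-kB, and for GAAA, any 2 bases and GAAA of interferon regulatory factors. The 250 bases before the start are printed 5′ to 3′ on the gene's strand with matches in capitals, and of the start sites that RefSeq gives for Cd180 the more upstream one was taken.
Tlr9 chr9:106222348-106222597 (+ strand): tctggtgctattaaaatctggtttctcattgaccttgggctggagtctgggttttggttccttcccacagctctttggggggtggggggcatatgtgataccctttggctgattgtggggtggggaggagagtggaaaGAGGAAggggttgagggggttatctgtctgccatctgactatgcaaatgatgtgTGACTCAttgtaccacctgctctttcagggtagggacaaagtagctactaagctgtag
Tlr13 chrX:106143025-106143274 (+ strand): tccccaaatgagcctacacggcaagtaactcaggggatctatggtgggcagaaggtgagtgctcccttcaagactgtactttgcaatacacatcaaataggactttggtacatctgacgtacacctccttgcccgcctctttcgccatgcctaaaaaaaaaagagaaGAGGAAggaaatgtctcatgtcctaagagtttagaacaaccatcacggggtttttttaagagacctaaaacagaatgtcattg
Tlr3 chr8:45410381-45410630 (- strand): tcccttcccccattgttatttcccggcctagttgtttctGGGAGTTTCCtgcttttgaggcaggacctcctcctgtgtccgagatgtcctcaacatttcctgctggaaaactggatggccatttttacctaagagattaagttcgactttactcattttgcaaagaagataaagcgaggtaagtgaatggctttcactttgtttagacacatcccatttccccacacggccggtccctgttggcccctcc
Cd180 chr13:102693297-102693546 (+ strand): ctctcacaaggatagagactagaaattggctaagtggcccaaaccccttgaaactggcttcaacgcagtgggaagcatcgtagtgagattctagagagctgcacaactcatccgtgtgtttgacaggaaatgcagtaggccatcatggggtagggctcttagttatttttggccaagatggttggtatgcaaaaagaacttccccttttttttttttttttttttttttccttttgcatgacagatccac
Tlr9 held GAGGAA 112 bases before the start and, on the other strand, 12 bases after it, and TGACTCA, which the pattern TGANTCA matches on both strands, 58 bases before. Tlr13 held GAGGAA at 83 bases before the start, and Tlr3 the NF-kB match GGGAGTTTCC at 211 bases before. Cd180 held none of the 4 motifs in the window. Of all 32851 RefSeq promoters of that length, 28.3% held the PU.1 core, 7.81% the AP-1 motif and 1.63% the NF-kB motif on either strand, and no matches of different motifs overlapped in the members shown. The motif of interferon regulatory factors, in 3.44% of promoters, was found among the members in Myd88 alone, 40 bases before its start. A match is a description of letters and does not show a bound site.

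Cd180 (chr13:102693558-102739629) had its highest group mean in hC4A/- and its lowest in hC4A/A libraries. It had 36.1 and 44.1 CPM in hC4A/A, 126, 205, 93.4, 187 and 175 in hC4A/-, 70.0, 53.1, 32.0 and 62.1 in hC4B/-, 135, 175, 84.5, 82.7 and 57.2 in C4-/-, and 38.7, 125, 312 and 39.4 in WT. All hC4A/- libraries lay above all hC4A/A and all hC4B/- libraries, and both hC4A/A libraries lay below all C4-/- libraries. WT ran from 38.7 to 312 CPM and overlapped every other group, with replicate 3 the highest of all 20 libraries.

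Cd180 averaged 40.1 ± 5.61 CPM in hC4A/A (SD, n = 2) and 157 ± 46.0 CPM in hC4A/- libraries (n = 5), a log2 difference of -1.97 ± 0.91 (edgeR adjusted p = 0.421, unadjusted p = 0.0371). Between hC4A/- and hC4B/-, the means were 157 ± 46.0 and 54.3 ± 16.4 CPM (n = 5 and 4), a difference of 1.53 ± 0.67 (edgeR adjusted p = 0.266, unadjusted p = 0.0296). The difference of hC4A/A from hC4A/- was -2.20 without the 4 broad libraries, and ran from -2.08 to -1.82 with 1 library left out; in the fit without the 4 and at both ends of this range hC4A/A is 1 library. That of hC4A/- from hC4B/- was 1.13 without the 4 broad libraries and ran from 1.25 to 1.65 with 1 library left out. The opposite-strand gene Mast4 shares 182 exon bases (4.04%) with Cd180.

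In hC4A/A against hC4A/-, Tlr9 and Cd180 were 2 of 10 members with an unadjusted p under 0.05, against 11.5% of all genes, and in hC4A/- against hC4B/- the same pair of genes was 2 of 10, against 16.7%. Both comparisons share the hC4A/- libraries. By non-overlap, Tlr3 and Tlr9 lay wholly higher in hC4A/A than in hC4A/- (2 of 10, with 6.47% of all genes) and Cd180 wholly lower (1 of 10, with 2.71%). Cd180 was wholly higher in hC4A/- than in hC4B/- (1 of 10, with 1.08%) and wholly lower in hC4A/A than in C4-/- (1 of 10, with 1.36%). No member was free of overlap in hC4A/- against C4-/- (0.97% of all genes), hC4B/- against C4-/- (0.741%), hC4B/- against WT (3.75%), C4-/- against WT (1.41%) or the 16 other libraries against WT (0.142%).

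Cd180 is also a B cell gene, and the summed level of 5 B cell markers ran from 9.67 to 24.6 CPM in hC4A/A, 0.687 to 27.6 in hC4A/-, 3.65 to 20.5 in hC4B/-, 0.932 to 33.4 in C4-/- and 4.98 to 12.2 in WT libraries. All 5 of them had counts in hC4A/A, hC4B/-, C4-/- and WT, and 4 of 5 in hC4A/-, where Cd79a was at 0. These sums overlapped between all groups, and their part in the Cd180 level was not tested.

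Ly86 (chr13:37345208-37419036) had 522 and 57.0 CPM in hC4A/A libraries, 308, 503, 206, 408 and 771 in hC4A/-, 421, 70.0, 178 and 273 in hC4B/-, 632, 690, 135, 662 and 514 in C4-/-, and 443, 194, 383 and 447 in WT. The 4 broad libraries were the 4 lowest of the 20, below every other library, and no pair of genotypes was separated. The 16 other libraries differed from WT by -0.05 on the log2 scale, with a 95% interval of -1.28 to 1.18 (edgeR adjusted p = 0.989). Although the Cd180 and Ly86 proteins bind each other, their transcripts were ordered over the libraries with a Spearman rho of 0.27 over 20 libraries and 0.02 over the 16 that were not broad, values that share depth and amplification and carry no test.

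Tlr4 (chr4:66827584-66930284) had 82.9 and 18.1 CPM in hC4A/A libraries, 13.1, 109, 57.7, 22.2 and 10.9 in hC4A/-, 11.96, 22.9, 8.85 and 62.9 in hC4B/-, 45.4, 10.3, 24.3, 68.2 and 52.6 in C4-/-, and 29.4, 20.6, 10.7 and 30.9 in WT. The libraries above 50 CPM were spread over all groups but WT, and every group also held libraries below 25 CPM. The 16 other libraries differed from WT by 0.76 (95% interval -0.66 to 2.18, edgeR adjusted p = 0.700).

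Cd14, the co-receptor, was 30.6 and 15.5 CPM in hC4A/A libraries, 19.3, 13.4, 28.8, 50.3 and 82.7 in hC4A/-, 31.2, 16.9, 44.9 and 19.001 in hC4B/-, 38.5, 8.39, 40.0, 20.4 and 58.6 in C4-/-, and 66.4, 7.83, 33.0 and 24.8 in WT. All groups overlapped in every comparison, and the difference of the 16 other libraries from WT was -0.13 (95% interval -1.38 to 1.13, edgeR adjusted p = 0.958). Cd14 had an adjusted p of 0.985 among genotypes, the highest of the 10. Tlr4 and Cd14, which act together at the cell surface, were ordered with a Spearman rho of -0.11 over 20 libraries.

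Tlr2 (chr3:83836272-83841767) lay between 1.17 and 15.1 CPM in the 16 libraries other than WT, and at 2.67, 4.98, 26.1 and 4.06 CPM in WT. WT replicate 3 was the highest of all 20 libraries, while the other 3 WT libraries lay within the range of the 16. The difference of the 16 libraries from WT was -0.69 (95% interval -2.36 to 0.99, edgeR adjusted p = 0.772), and 0.57 without WT replicate 3. That library was also the highest of its group for Tlr3, Tlr9 and Cd180. In the same contrast without it, Cd180 turned to 0.20 (-0.73 with it), Tlr3 to 0.19 (-0.45 with it) and Tlr9 was 2.74 (0.83 with it).

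Myd88 (chr9:119335934-119341411), the adaptor of the Toll-like receptors named here other than Tlr3, was low, with 1 to 28 counts per library and 0.690 to 13.97 CPM. It averaged 6.47 ± 5.51 CPM in hC4A/A, 3.31 ± 2.59 in hC4A/-, 5.99 ± 4.93 in hC4B/-, 7.46 ± 5.18 in C4-/- and 6.17 ± 2.20 in WT libraries (SD, n = 2, 5, 4, 5 and 4). The groups overlapped in all comparisons, and the neighbouring Slc22a14 and Acaa1a share 290 exon bases (11.3%) with it.

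**Figure D3:**
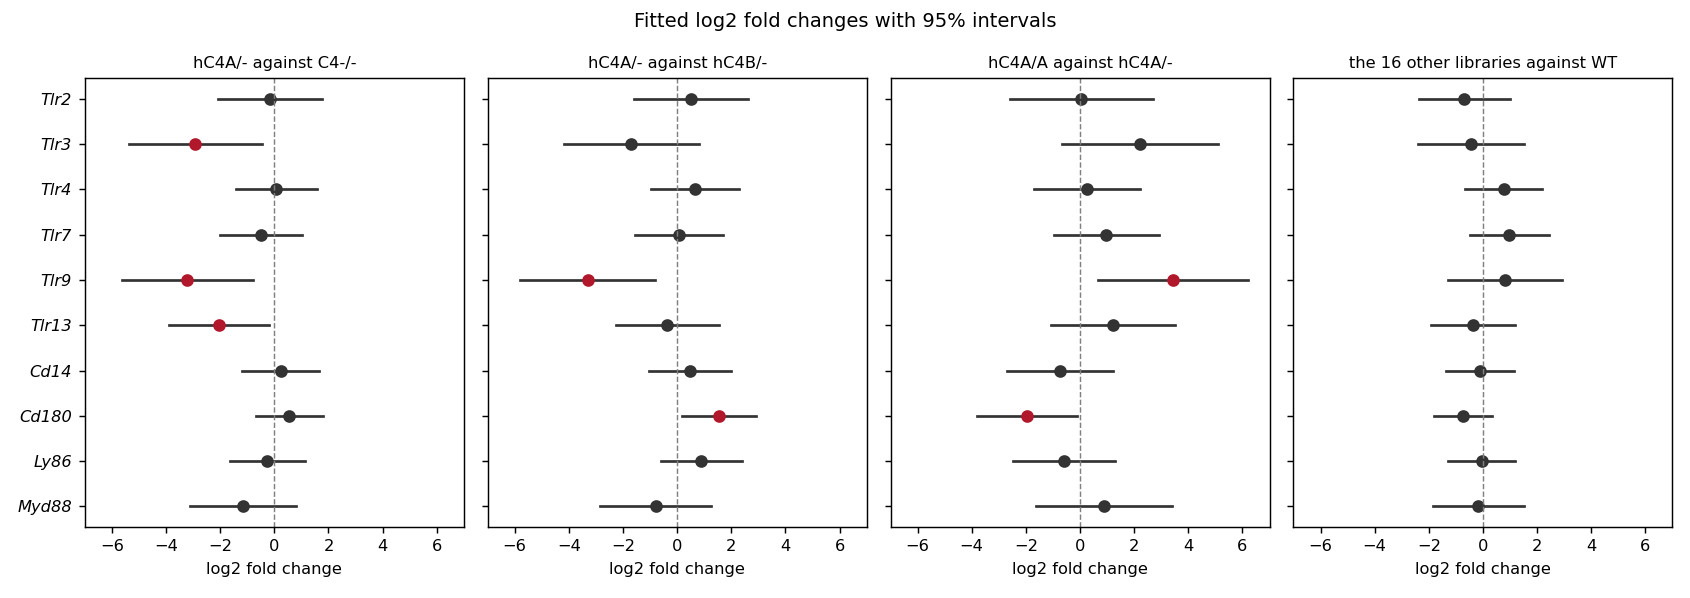
Log2 fold change of each member with its 95% interval, from the edgeR fit of all 20 libraries, in a panel for each of 4 comparisons; positive values are higher in the group named first. Red marks an unadjusted p under 0.05, which Tlr9 reached 3 times, Cd180 2 times and Tlr3 and Tlr13 1 time each; none passed after adjustment.

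Between the 4 broad libraries and the other 16, 8 of the 10 members overlapped. Tlr9 lay wholly higher in the 4, at 42.9 to 91.8 CPM against 0 to 29.1 CPM (1 of 10 members, with 9.47% of all genes), and Ly86 wholly lower (1 of 10, with 7.05%), shares near those of all genes. On the log2(CPM + 1) scale of the medians, Tlr9 was higher by 3.89, Tlr3 by 2.14, Tlr7 by 1.94, Tlr13 by 1.34, Myd88 by 1.11 and Tlr2 by 1.00, while Tlr4 differed by -0.54, Cd180 by -1.15, Ly86 by -2.18 and Cd14 by -0.18. The corresponding median over all genes tested was 0.73. These libraries were set apart by their number of detected genes, a measure of the data and not of the labels, so no test was made. In bulk samples fewer cells of a type and less RNA per cell cannot be told apart. Of the olfactory and vomeronasal receptor genes, 55.1% to 73.1% had counts in the 4, against 6.08% to 39.2% in the other 16. Higher levels in the 4 may therefore not be levels in microglia, and what spread the reads over these genes was not tested.

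**Figure D4:**
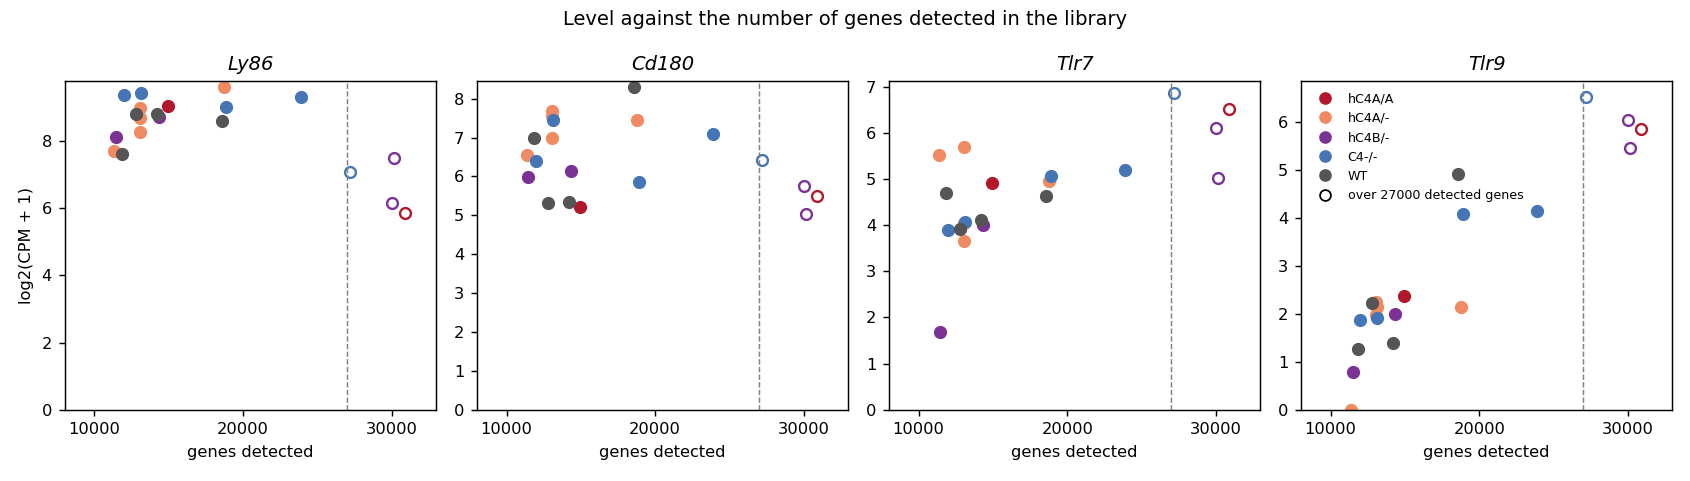
Level of Ly86, Cd180, Tlr7 and Tlr9 in each library as log2(CPM + 1) against the number of genes with at least 1 count. Points are libraries coloured by genotype, with the 4 of over 27000 genes as open symbols: these lie highest for Tlr9 and lowest for Ly86.

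Around the 10 members, 5 lists of pathway genes were read. Of 6 other Toll-like receptors, 4 had enough counts to test and 0 passed among the 5 genotypes; Tlr8 and Tlr11 had a median of 0 CPM. Tlr6, which pairs with Tlr2, had a median of 8.08 CPM per kilobase, above that of Tlr2, and averaged 32.6 ± 33.3 CPM in hC4A/A, 80.1 ± 58.4 in hC4A/-, 35.1 ± 49.8 in hC4B/-, 25.2 ± 35.4 in C4-/- and 48.6 ± 31.1 in WT libraries (edgeR adjusted p = 0.788). Tlr12 and Tlr1 had adjusted p of 0.627 and 0.947. Of 10 co-receptors, chaperones and trafficking genes 7 were tested and 0 passed, with adjusted p of 0.890 for Cnpy3, 0.901 for Hsp90b1 and 0.913 for Cnpy4, all chaperones of these receptors or their relatives. Hsp90b1, the chaperone that folds most Toll-like receptors, had 57.0 to 112 CPM in the 4 broad libraries and 159 to 601 CPM in the other 16. Of all genes tested, 7.05% lay wholly lower in the 4 in this way. Unc93b1, which carries the endosomal receptors out of the endoplasmic reticulum, had a median of 54.2 CPM per kilobase, above each of the endosomal receptors.

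Of 20 adaptors and proximal kinases 19 were tested and 0 passed. The lowest adjusted p was 0.337 for Tab3, an adaptor of the kinase Map3k7, with 34.8 and 9.07 CPM in hC4A/A, 0 to 1.38 in hC4A/-, 0 to 27.3 in hC4B/-, 0 to 5.18 in C4-/- and 0 to 4.98 in WT libraries, followed by Ticam2 with 0.440 and Traf3 with 0.481. Of 10 inhibitors 7 were tested and 0 passed in edgeR, with 0.370 for Tnip1, 0.397 for Sarm1 and 0.636 for Il1rl1. Sarm1 did pass among the 5 genotypes under alternative processing, though not on leaving out any library, and Tnip1 and Il1rl1 passed in no setting.

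Of 16 transcriptional targets of the pathway, 7 had enough counts to test, and Tnf, Il1b, Il12b, Ccl5, Cxcl10, Ptgs2, Il10 and Ifnb1 had a median of 0 CPM. Only Ccl2, a chemokine for monocytes, passed among the 5 genotypes (edgeR adjusted p = 0.0192). It had 80.3 and 6.48 CPM in hC4A/A, 67.0, 10.7, 6.87, 2.93 and 55.8 in hC4A/-, 7.69, 2.41, 3.40 and 0.731 in hC4B/-, 25.3, 13.99, 4.59, 31.7 and 3.99 in C4-/-, and 228, 130, 276 and 166 in WT libraries. All 4 WT libraries lay above all 16 others, and the difference of the 16 from WT was -3.59 ± 0.65 with an edgeR adjusted p of 0.0545. The call among genotypes was lost without the 4 broad libraries (adjusted p = 0.212), with voom (0.253), with the replicate block (0.0840) and without WT replicate 1 (0.0607), WT replicate 3 (0.0764), WT replicate 4 (0.0589) or hC4B/- replicate 3 (0.251). The log2 difference of the 16 libraries from WT stayed between -4.25 and -3.24 in all 27 alternative settings. The summed level of 8 neutrophil markers was 102 to 1424 CPM in WT libraries, and 47.9 to 70.9 in hC4A/A, 0.537 to 114 in hC4A/-, 0 to 176 in hC4B/- and 0 to 146 in C4-/-, and its part in the Ccl2 level was not tested.

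Il6 and Ccl3 had edgeR adjusted p of 0.349 and 0.524. Il6 did pass among the 5 genotypes under alternative processing, though not on leaving out any library, and Ccl3 passed in no setting. Whether Il6 was called thus depended on the processing. Il6, an inflammatory cytokine, had 24.2 and 7.77 CPM in hC4A/A, 0.690, 2.69, 33.6, 84.3 and 100.04 in hC4A/-, 0.731 to 5.55 in hC4B/-, 0 to 8.63 in C4-/-, and 6.01, 2.14, 123 and 2.44 in WT libraries. Replicates 3, 4 and 5 of hC4A/- and WT replicate 3 lay far above the rest of their groups. In hC4A/- against hC4B/-, 7 of the 7 targets tested had a log2 difference above 0, as had 5870 of the 12680 genes tested. Their median was 1.73 against -0.14 for all genes, and 0 of 7 passed. In each of the other comparisons 1 to 5 of the 7 targets lay above 0. Replicates 2 and 3 of hC4B/- are broad libraries, and no broad library is labelled hC4A/-.

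For the 6 members with a median of at least 10 counts, the genes with the most similar order over the 20 libraries were sought among 5994 genes by Spearman rho of log2 CPM. These were Ylpm1 (0.83) and Phc3 (0.75) for Tlr4, Rnf145 (0.85) and Spire1 (0.84) for Tlr7, Hyou1 (0.80) and Bicra (0.79) for Tlr13, Reep5 (0.86) and Ctsd (0.85) for Cd14, Nf2 (0.84) and Vps37a (0.79) for Cd180, and Xrn2 (0.87) and Cnot10 (0.86) for Ly86. Over the 16 libraries that were not broad, rho was 0.84 for Tlr4 with Ylpm1, 0.81 for Tlr7 with Rnf145, 0.71 for Tlr13 with Hyou1, 0.90 for Cd14 with Reep5, 0.79 for Cd180 with Nf2 and 0.77 for Ly86 with Xrn2. No member was among the most similar genes of another.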

How the data were processed

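For each of 20 libraries, the authors deposited a table of raw read counts for every gene, laid out as STAR's gene counts. The submitters' processing notes name GRCm38, STAR and edgeR; tool versions and the annotation release were not given there. The unstranded counts were used, because both strand columns took nearly equal shares (49.7% to 49.9% on one strand). Reads that were unmapped, multimapping, featureless or ambiguous, 72.0% to 88.7% of all, stayed out. A deposited table of the whole series with 20 columns was not used.

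Groups and replicate numbers come from the sample titles. Genes were filtered with filterByExpr by genotype and TMM-scaled, and 1 edgeR 4.0.16 quasi-likelihood model (R 4.3.3, robust, 15 residual degrees of freedom, no covariates) was fitted to all 20 libraries. Benjamini-Hochberg adjustment ran over 12680 genes. An SE is the log2 fold change divided by the root of F. CPM uses TMM-scaled library sizes; exon lengths and symbols come from GENCODE annotation of GRCm38. Alternatives were RLE scaling, no filter, DESeq2 1.42.0, voom (limma 3.58.1), no satellite-like genes, no broad libraries, a replicate block and leaving out each library. A count of 0 allows up to 3 counts. Libraries of 1 genotype differed from each other by at least 26.3 times the sampling noise (chi-square per degree of freedom). Within a genotype label none was therefore a copy of another. Libraries with different labels were not compared in this way. The model was tested on simulated data with known changes.

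The members and all lists were chosen with earlier results of these data known. Named genes are the 10 members, the 3 genes of each pathway list with the smallest p among the 5 genotypes, and the 2 genes most similar to each member with a median of at least 10 counts; other genes named with a level were chosen after their values were seen.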

Additional observations from a re-analysis of the deposited data

Results flagged for a closer look

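In 40 groups of 4 or 5 libraries (10 members in 4 genotypes), 5 values stood apart from the rest of their group by Dixon's test at the 95% level. For normally distributed values chance alone gives about 1 in 20 groups. The test was run on CPM, and 4 of the 5 values were the highest of their group. The chance rate for such levels was not determined, so the 5 are not read as an excess. In WT replicate 3, Tlr2 was 26.1 CPM, against 2.67 to 4.98 CPM in the other 3 WT libraries, and Tlr9 was 29.1 CPM, against 1.42 to 3.67 CPM. In C4-/- replicate 3, Tlr7 was 115 CPM, against 13.97 to 35.7 CPM in the other 4 C4-/- libraries, and Tlr9 was 91.8 CPM, against 2.69 to 16.7 CPM; this is 1 of the 4 libraries with over 27000 detected genes. In hC4A/- replicate 3, Tlr9 was 0 CPM, against 2.93 to 3.76 CPM in the other 4 hC4A/- libraries, a value separated from the rest by few counts.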

How the results depend on the processing

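Over 3080 tests of members (10 genes, 11 comparisons and 28 settings) 0 had an adjusted p under 0.05; the smallest was 0.0753, for Tlr9 in hC4A/- against hC4B/- by DESeq2. Counts of all genes called moved widely. Among the 5 genotypes 15 genes were called by edgeR, 24 with RLE scaling, 697 with no filter, 65 by DESeq2, 0 by voom, 2 without the 4 broad libraries, 0 with the replicate block and 0 to 34 with 1 library left out. For the 16 other libraries against WT the count of 0 (1218 at an unadjusted p under 0.05) became 2, 261, 31, 3, 1 and 1 in that order of settings, 14 without satellite-like genes and 0 to 7 with 1 library left out. With no filter, counts were 3 in hC4A/A, 65 in hC4A/-, 28 in hC4B/- and 26 in C4-/- against WT, 53 in hC4A/- and 16 in hC4B/- against C4-/-, and 36 in hC4A/- against hC4B/-. By DESeq2 they were 4, 21, 53 and 20 against WT, 1 in hC4A/A, 10 in hC4A/- and 3 in hC4B/- against C4-/-, 2 in hC4A/A against hC4A/- and 58 in hC4A/- against hC4B/-. By voom they were 1 in hC4A/- against WT, 1 in hC4A/- against C4-/- and 6 in hC4A/A against hC4A/-, and without the 4 broad libraries 1 in hC4A/- against WT. With 1 library left out they ran from 0 to 1 in hC4A/A and 0 to 2 in hC4B/- against WT and 0 to 8 in hC4A/- against hC4B/-.

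In the 16 other libraries against WT, log2 differences turned sign at 0.92 for Tlr3 with voom, -1.03 for Tlr9 and 0.37 for Ly86 without the 4 broad libraries, 0.0168 and 0.0175 for Tlr13, 0.0423 and 0.0396 for Cd14 and 0.0113 and 0.0125 for Ly86 with RLE scaling and DESeq2, 0.13 and 0.11 for Myd88 with RLE scaling and DESeq2, and 0.0451 for Cd14 with voom. The median over all genes in that contrast was 0.15 with TMM and 0.32 with RLE scaling. With 1 library left out the range was -1.03 to 0.57 for Tlr2, -0.85 to 0.39 for Tlr3, -0.43 to 0.48 for Cd14, -1.02 to 0.20 for Cd180, -0.62 to 0.17 for Ly86 and -0.49 to 0.12 for Myd88. Tlr9 in hC4A/- against hC4B/- turned to 0.43 without the 4 broad libraries. The cause of these changes was not tested.

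Replicate numbers showed no clear pairing of the libraries. Of 33 pairs with the same number 5 had a correlation of deviations over 0.1, with a median of 0.0083 (other pairs, -0.0014). Of 20 libraries 6 correlated best with their own number. The highest correlation, 0.71, joined C4-/- replicate 3 and hC4A/A replicate 2, both broad. The hC4A/A libraries deviate from their mean by equal and opposite amounts, so these correlations cannot exclude a pairing. Tlr2, Tlr3 and Myd88, with under 10 counts in most libraries, and Tlr9, with under 10 in 10 of 20, are limited most by depth. Without the 4 broad libraries or either hC4A/A library, hC4A/A is 1 library, assumed to vary like the other groups.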
